A study of Arabidopsis thaliana with 8 samples.

Results

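The clade A protein phosphatases 2C of Arabidopsis thaliana are a family of 9 genes: ABI1, ABI2, HAB1, HAB2, PP2CA, AHG1, HAI1, HAI2 and HAI3. Their GBF2 binding was read from 3 deposited peak lists by the gene that the authors gave to each peak. All 9 genes belong to the 27444 protein-coding nuclear genes that served as background. Of the 767 peaks of the tunicamycin list 3 were given to one of them, as were 3 of the 502 peaks that the authors listed as specific to tunicamycin and 0 of the 320 peaks of the DMSO list.

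These phosphatases are the negative regulators at the core of abscisic acid signalling. In the absence of the hormone they hold SnRK2 kinases inactive. When the hormone is bound, receptors of the PYR/PYL family dock onto the phosphatases and block them, and the freed kinases phosphorylate ion channels and bZIP transcription factors of the ABF group. Several phosphatase genes are themselves induced by abscisic acid, which gives the pathway a feedback. GBF2 is a bZIP factor of another group that binds the G-box, a motif that shares its ACGT core with the abscisic acid response element.

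The libraries came from whole seedlings of the Columbia accession (Col-0) with a transgene for GBF2 joined to Ypet, a yellow fluorescent protein, driven by the promoter of GBF2 itself (pGBF2:GBF2-Ypet), and chromatin was precipitated with an antibody against GFP. Seedlings aged 5 days spent 6 h in liquid medium with 0.5 µg/mL tunicamycin, which blocks N-glycosylation and causes stress of the endoplasmic reticulum, or with the solvent DMSO alone. Each treatment had 2 precipitated and 2 input libraries, 8 in all. The fusion was present in all 4 groups, the genotype label names no mutation of the GBF2 gene itself, and a line without the fusion was not analysed here. Each treatment has 1 list and no values per library, so neither depth nor replicate spread is known. Seedlings pool all cell types, and a site bound weakly in many cells cannot be told apart from one bound strongly in few.

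The phosphatase genes with a peak under tunicamycin were HAI2, HAI1 and PP2CA, with 1 peak each. That is 33.3% of the family, beside 2.27% of all protein-coding genes in the tunicamycin list. No test was made of this share, since the family was chosen with results of these lists known. In the DMSO list 0.849% of protein-coding genes had a peak, and at so low a share a count of 0 of 9 says nothing particular about the phosphatases.

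HAI2 (AT1G07430), also called AIP1 or HONSU, is one of the phosphatase genes named for their strong induction by abscisic acid and acts in seed dormancy. Its peak covered 785 bp at chromosome 1, 2282671 to 2283455 (TAIR10 coordinates throughout), in the authors' promoter class nearest to the gene (up to 1 kb). The score, which is the authors' signal value for a peak and orders peaks within 1 list only, was 2.63. This was the highest of the 3 phosphatase peaks and placed it at rank 249 of the 767.

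HAI1 (AT5G59220), also called SAG113 after its rise in senescent leaves, belongs to the same induced group. Its peak lay at chromosome 5, 23898197 to 23899111, and covered 915 bp with a score of 2.61 at rank 261. The peaks of HAI2 and HAI1 were 0.0226 apart in score, with 11 other peaks between them. The HAI1 peak was the one phosphatase peak outside the nearest promoter class: the authors put it in the class of 1 to 2 kb, which held 6.13% of the tunicamycin list, against 76.0% in the class of up to 1 kb.

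PP2CA (AT3G11410), also known as AHG3, restrains the hormone response during germination. Its peak was the longest of the 3, 1035 bp at chromosome 3, 3585365 to 3586399 in the nearest promoter class. It was also the weakest, with a score of 2.14 at rank 676. The score of HAI1 was 0.468 higher than that of PP2CA, and 414 peaks lay between them. Only 91 peaks of the list scored lower than PP2CA, and the lowest score of the list was 1.89.

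All 3 peaks thus lay in the body of the list rather than at its top, where scores reached 7.49. The median score was 2.47, with quartiles of 2.26 and 2.75, so HAI2 and HAI1 stood between the median and the upper quartile and PP2CA below the lower quartile. In length, HAI1 and PP2CA lay between the median of the list, 878 bp, and its upper quartile of 1080.5 bp, and HAI2 lay 1 bp below the lower quartile of 786 bp. The authors' files place all 3 genes on the strand they code as 2.

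**Figure D1:**
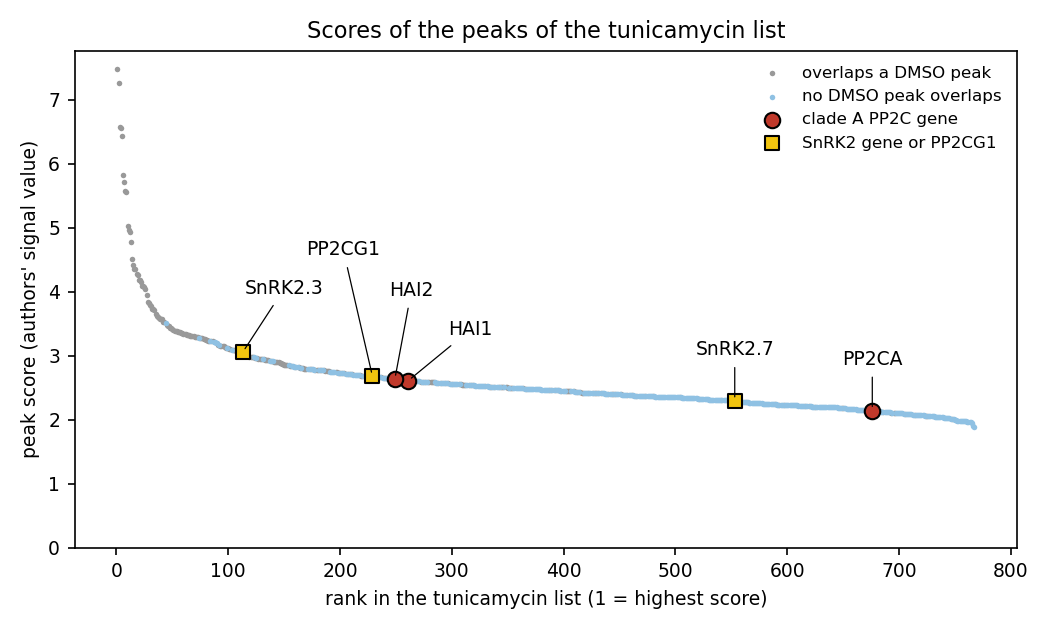
The score of each of the 767 tunicamycin peaks (authors' signal value) is plotted against its rank, coloured by whether a DMSO peak overlaps it by at least 1 bp. HAI2 and HAI1 sit side by side at ranks 249 and 261, PP2CA lies near the low end at rank 676, and all 3, with SnRK2.3, SnRK2.7 and PP2CG1, are among the peaks without an overlap.

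Whether these sites were also listed without tunicamycin was examined next. No DMSO peak overlapped any of the 3 phosphatase peaks, and all 3 were among the peaks that the authors set apart as tunicamycin-specific. These 2 criteria are not the same. The specific list held 502 peaks, and 473 of the 490 tunicamycin peaks without a DMSO overlap were in it. Over all protein-coding genes 1.49% had a tunicamycin peak without a DMSO overlap, and 1.52% were in the specific list. Among the 490 tunicamycin peaks without an overlap, whose median score was 2.35, HAI2 ranked at 71, HAI1 at 79 and PP2CA at 409.

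The nearest DMSO peak lay 21.4 kb from the HAI1 peak, 44.4 kb from the HAI2 peak and 97.9 kb from the PP2CA peak. That nearest to HAI1 was given to RABA2D, a gene for a small GTPase of membrane traffic. The one nearest to HAI2 was given to AT1G07280, which also had the nearest tunicamycin peak. A site absent from the DMSO list may still have been bound below the authors' threshold, which is not given in the sources used here.

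Absence from the DMSO list was frequent among peaks as strong as these. Of the 100 tunicamycin peaks closest in score to that of HAI2, with scores from 2.55 to 2.72, 36 overlapped a DMSO peak. Around HAI1 the count was 38 of 100, and around PP2CA, between scores of 2.07 and 2.21, it was 12 of 100. In the whole list 36.1% of peaks overlapped one. The peaks of HAI2 and HAI1 therefore shared their lack of a DMSO peak with most peaks of like score, as did that of PP2CA, where fewer of them overlapped one. The depth of the libraries behind each list is unknown, and its part in this was not tested.

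**Figure D2:**
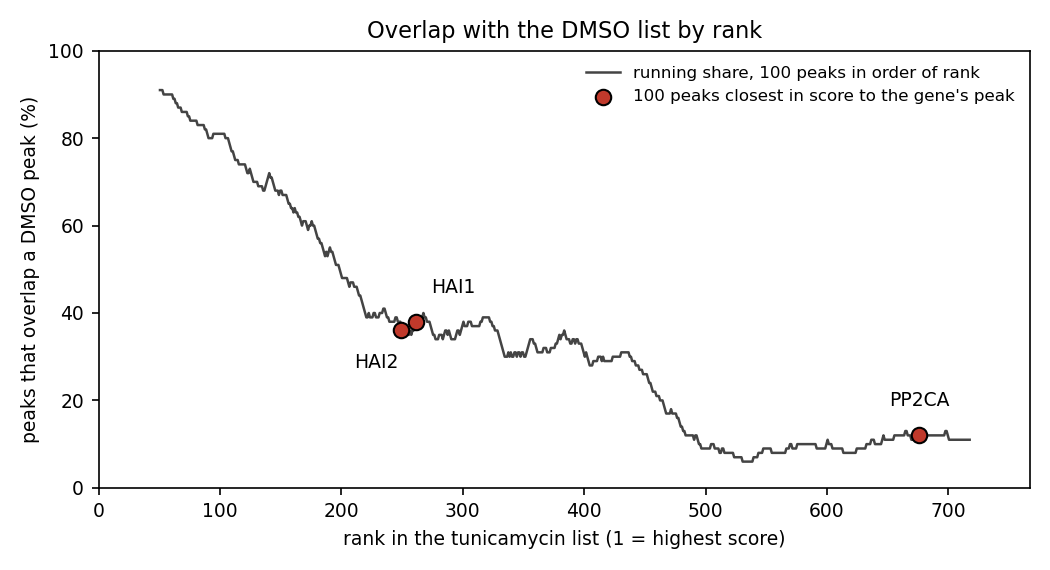
The line gives the share of tunicamycin peaks that overlap a DMSO peak (%) in a running window of 100 peaks ordered by rank, and the points give that share among the 100 peaks closest in score to each phosphatase peak. The points stand at 36% for HAI2, 38% for HAI1 and 12% for PP2CA, where the line has come down from its high level among the strongest peaks.

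The other 6 phosphatase genes had no peak in any list. ABI1 (AT4G26080) and ABI2 (AT5G57050), known from dominant mutants that make plants insensitive to abscisic acid, were among them, as were their relatives HAB1 (AT1G72770) and HAB2 (AT1G17550). These 4 genes form one branch of the clade, and 0 of 4 had a peak. In the other branch, of PP2CA, AHG1 and the HAI genes, 3 of 5 had a tunicamycin peak. AHG1 (AT5G51760), which acts mainly in seeds, and HAI3 (AT2G29380), the third of the induced genes, were the members of that branch without one. At the background share of 2.27% a count of 0 of 4 is nothing particular to the first branch, and the branches were not compared by a test.

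The files give 1 gene per peak, so a peak beside a phosphatase gene could have been given to its neighbour. In the RefSeq gene order, the next gene on either side of each of the 9 phosphatase genes had no peak in the DMSO or the tunicamycin list. The closest was ABI1, with a tunicamycin peak 4 genes away at PIRL8, which codes for a leucine-rich repeat protein. HAB2 followed with AT1G17615 at 7 genes, AHG1 with AT5G51560 at 26 and HAB1 with AT1G73020 at 30. HAI3 was 81 genes from MAPKKK14, a kinase gene, and ABI2 was 127 genes from TIL, a lipocalin gene. The median over these 6 genes was 28 genes, beside 19 over all 26822 protein-coding genes without a tunicamycin peak (quartiles 8 and 41). ABI1 and HAB2 were thus closer to a gene with a tunicamycin peak than the lower quartile of those genes. HAI3 and ABI2 were farther than the upper quartile, and AHG1 and HAB1 lay between. Of these 6, only ABI2 had a gene with a DMSO peak closer by, HAG2 at 44 genes.

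**Figure D3:**
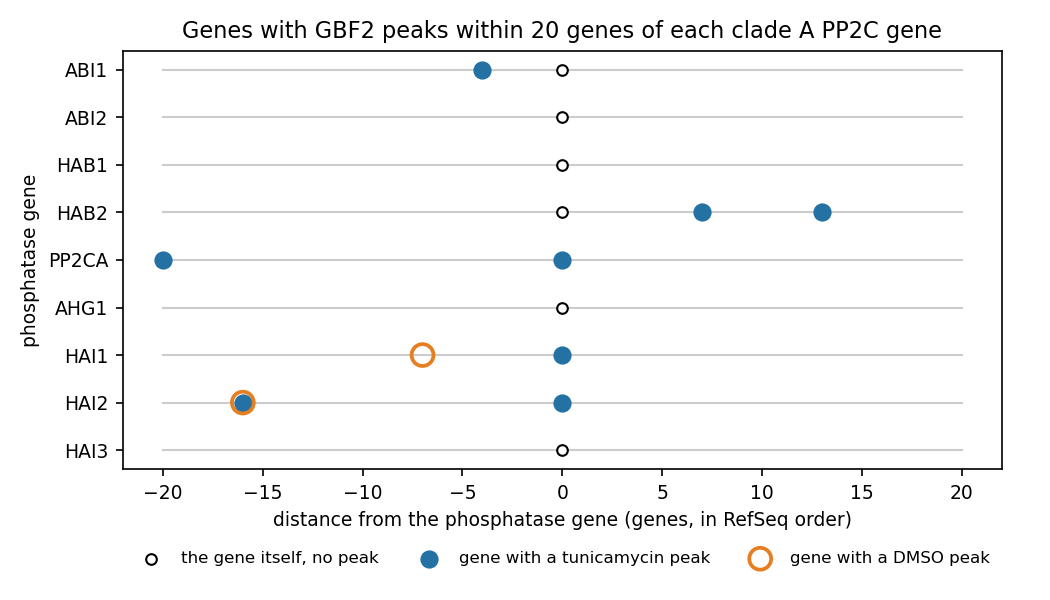
Each row is a phosphatase gene at position 0 with the 20 genes on either side in RefSeq order; filled points are genes with a tunicamycin peak and rings are genes with a DMSO peak. HAI1, HAI2 and PP2CA carry a peak of their own, no direct neighbour of any of the 9 does, and the closest one is 4 genes from ABI1.

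Other genes of the abscisic acid pathway were examined in the same way, in a chosen list of 48 genes of perception, signalling, synthesis and breakdown. The list is not complete, and further genes tied to the hormone may have peaks in either list. Of the 48 genes, 2 had a tunicamycin peak, or 4.17%, and 0 had a DMSO peak, beside 2.27% and 0.849% of all protein-coding genes. The count over the 48 genes is thus near the background and is no result about the pathway, and the peaks below are given as values of single genes. Both coded for SnRK2 kinases, the direct targets of the phosphatases, of which 2 of 10 had a peak. SnRK2.3 (AT5G66880), one of the kinases activated by abscisic acid, had a stronger peak than any clade A phosphatase gene, with a score of 3.06 at rank 113. It lay at chromosome 5, 26709612 to 26710432, and ranked at 12 among the 490 peaks without a DMSO overlap. SnRK2.7 (AT4G40010) had a score of 2.29 at rank 553, at chromosome 4, 18550870 to 18551714. A second tunicamycin peak, given to the neighbouring gene AT4G40011, lay 0.328 kb from it. That second peak was the stronger of the pair, with a score of 2.58 at rank 286.

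Both kinase peaks were in the nearest promoter class, without a DMSO overlap and in the specific list, as were those of HAI2 and PP2CA. None of the 14 receptor genes PYR1 and PYL1 to PYL13 had a peak in any list, nor did SnRK2.2 and SnRK2.6, the closest functional relatives of SnRK2.3. The 9 listed transcription factor genes, which included ABF1 to ABF4, ABI3, ABI4 and ABI5, had none. The 9 listed synthesis genes, such as NCED3 for the enzyme of the rate-limiting step, had none either. The same held for the 4 CYP707A genes of hormone breakdown and for the channel genes SLAC1 and KAT1. None of these 46 genes stood next to a gene with a peak. At a background share of 2.27%, a count of 0 in groups of 2 to 14 genes says nothing particular about a role, and the roles were not compared by a test.

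**Figure D4:**
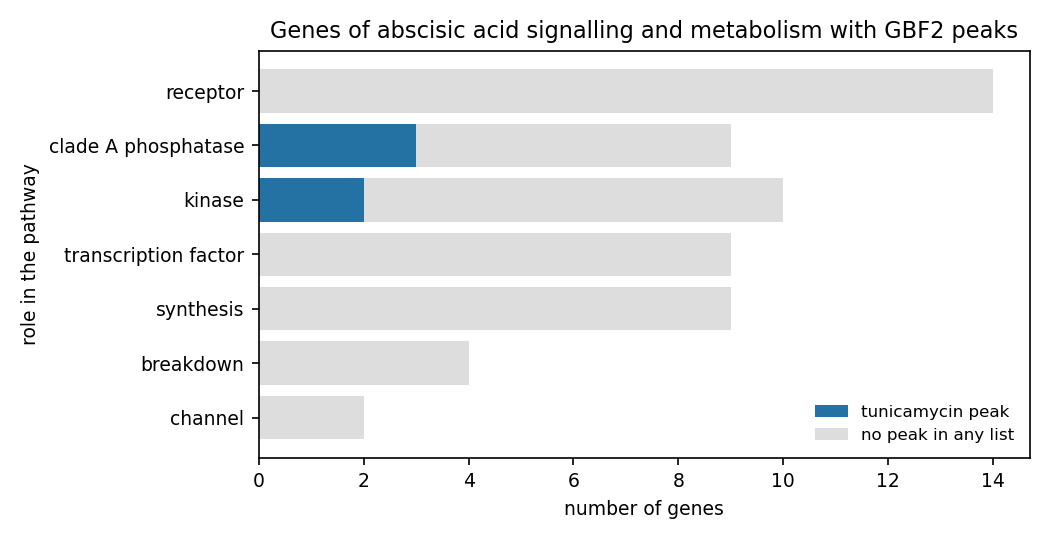
Bars count the listed genes of each role in abscisic acid signalling and metabolism. Those given a tunicamycin peak are in blue and those without a peak in any list in grey. Peaks stood at 3 of 9 clade A phosphatase genes and 2 of 10 SnRK2 kinase genes, and at 0 of the 14 receptor, 9 transcription factor, 9 synthesis, 4 breakdown and 2 channel genes.

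Other phosphatases of type 2C were set beside the clade as far as the gene table names them. Of 12 such genes outside clade A, 1 had a tunicamycin peak and 0 a DMSO peak, beside 2.27% and 0.849% of all protein-coding genes, and 1 gene of 12 cannot be told from that background. It was PP2CG1 (AT2G33700), a phosphatase gene of another clade, with a score of 2.68 at rank 229, close above HAI2. Its peak, at chromosome 2, 14252979 to 14253521, was short at 543 bp, and 2.74% of the tunicamycin peaks were shorter. The table names only part of the family by symbol or synonym, and genes it does not name so were not looked up. Such genes may have peaks in both lists, also stronger ones. The counts of 1 and 0 therefore do not describe all phosphatases 2C and do not set clade A apart from them.

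The genes most like each bound phosphatase were taken as those with the same presence over the 3 lists, the same position class and the next higher and next lower score. For HAI2 they were AT4G34630, with a difference in score of 0.00179, and the cold-regulated gene COR314-TM2, with 0.00079, out of 386 such peaks. For PP2CA they were the kinesin gene ARK2, with 4e-05, and AT5G64910, with 0.00147. For HAI1 the class of 1 to 2 kb left 28 peaks, and the nearest were AT5G60680 and AT2G46420, with differences of 0.0230 and 0.0489. The score orders peaks of 1 list, so this likeness rests on 1 value per gene.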

How the data were processed

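Per the labels, GBF2-Ypet was precipitated from DMSO-treated and tunicamycin-treated seedlings, with 2 precipitated and 2 input libraries each. Per the submitters' processing notes, the build was TAIR10 and the tools were MACS2 2.1.2, SAMtools 1.8, Bowtie 1.1.2, cutadapt 1.8.1 and FastQC 0.11.5. How they were set, where the peak threshold lay, how inputs were used and whether replicates were pooled was not given in the sources used here. There are 3 peak lists, which the authors deposited with a score per peak (the signal value, per the file headers), a position class and 1 gene per peak. The deposited width counts both the first and the last base of each peak, so coordinates are 1-based. Depth is unknown, so no interval could be given for a score and no score was compared across lists.

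Genes were called bound where the authors gave them a peak. An overlap of 1 bp or more made 2 peaks shared. Names and gene order came from a RefSeq table (TAIR10.1), whose coordinates were not set against peaks: 727 of 744 tunicamycin identifiers, 285 of 292 DMSO identifiers, all 9 phosphatase genes and all 48 pathway genes matched, and unmatched ones were left out of neighbour counts. Other phosphatases were found by symbol or synonym. The members and gene lists were chosen with earlier results of these data known, so no set test was made. The genes named were the members, pathway and phosphatase genes with a peak, pathway genes named as without one, the nearest bound genes and those most alike in score. Motif searches had been planned and were not run, since no sequence was used here. The overlap rule was tested on simulated data. Alternatives covered the score minimum, list length, position class, gene assignment, overlap rule and background. The software was matplotlib 3.10.9, SciPy 1.17.1, numpy 2.4.6 and pandas 2.3.3 under Python 3.11.15.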

Additional observations from a re-analysis of the deposited data

How the results depend on the processing

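The count of phosphatase genes with a tunicamycin peak was 3 in all deposited peaks and when a peak at the next gene on either side was counted, also with protein-coding neighbours alone, a choice made after seeing the data. It was 2 with the strongest 50% of the list and with its 320 strongest peaks, both of which leave out PP2CA by construction, and 2 with promoter peaks of up to 1 kb alone, which leaves out HAI1. The count in the DMSO list was 0 under each setting. The count without a DMSO overlap was 3 with overlap of 50% of the shorter peak, midpoints within 200 bp and the authors' specific list, and 2 with the strongest 50% of each list. The background share of 2.27% became 1.92% over nuclear genes of any kind, which takes in more genes by construction, and 8.33% over the 12 other genes named as phosphatase 2C, where 1 gene decides the value. Searches for the G-box and its cores were not run. No replicate could be left out and no paired analysis was possible because the lists hold no values per library.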

Other observations

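HAI2 and HAI3 have matching surroundings in the RefSeq gene order, a fact noticed after their values were seen. SMO2-1, a gene for a sterol methyl oxidase, is the next gene to HAI2, and its relative SMO2-2 is the next gene to HAI3. The peak at HAI2 had no counterpart at HAI3, and neither SMO2 gene had a peak in the DMSO or the tunicamycin list. Around HAI2 the nearest other gene with a tunicamycin peak was 16 genes away, and around HAI3 it was 81 genes away.

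The nearest other gene with a tunicamycin peak was 46 genes from HAI1, at BOA, a gene of the circadian clock, and 20 genes from PP2CA, at AT3G11280. In distance, the next tunicamycin peak lay 104 kb from that of HAI1, 49.9 kb from that of PP2CA and 44.4 kb from that of HAI2.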
